A study of Arabidopsis thaliana with 72 samples.

Results

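The nuclear genes for the 2 photosystems, their light-harvesting antenna and the electron carriers between and behind them were followed in Arabidopsis thaliana leaves under alkaline stress. The members were taken by gene identifier: the LHCA genes of the photosystem I antenna (LHCI), the LHCB genes of the photosystem II antenna (LHCII and the minor antenna), the PSA genes of photosystem I, the PSB genes of photosystem II, and PETC, PETE1, PETE2, LFNR1, LFNR2 and FD2 as carriers. All 49 were among the 18603 genes of the expression table: 6 for LHCI, 15 for LHCII and minor antenna, 12 for photosystem I, 10 for photosystem II and 6 for carriers. They were listed by identifier and not by a measured value, though with earlier results of these data known.

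The leaves came from 2 natural demes, the carbonate-tolerant A1(c+) and the sensitive T6(c-), grown in aerated hydroponics and treated from an age of 15 days. Half-strength Hoagland solution was given with 10 mM NaHCO3 at pH 8.3 (bic), at pH 8.3 without bicarbonate (pH 8.3) or at pH 5.9 (control), all 3 buffered with MES and BTP, and leaves were harvested after 3 h and 48 h. Each of the 12 groups held 2 biological replicates, each sequenced as 3 technical libraries (72 in all) that the table gives as 1 column. The study pooled leaves of several plants per line and treatment. Nothing in the labels says how far the replicates of a group shared plants or vessels, so p-values measure only the spread between these samples, and 2 against 2 cannot reach p under 0.05 in an exact permutation test.

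In thylakoid membranes, LHCII trimers and the minor antenna pass excitation to photosystem II, which oxidises water and reduces plastoquinone, and LHCI passes it to photosystem I, which reduces ferredoxin. The Rieske protein of the cytochrome b6f complex and the soluble plastocyanin carry electrons between both photosystems, and ferredoxin-NADP+ reductase hands them on to NADPH. The reaction centre proteins are encoded in the plastid, whereas antenna and peripheral subunits are encoded in the nucleus, are among the most abundant mRNAs of a green leaf, and respond to light, to the clock and to signals from the chloroplast.

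Library totals per replicate were 63.5 to 120.6 M reads (median 99.7 M), so counting error was small for every member: the lowest member value in any replicate was 24.5 CPM (counts per M reads of the library, M standing for mega). At 82 genes that separated the demes by more than 3 log2 units in the other 21 replicates, replicate 2 of A1(c+) bic 3 h went against its label, with 60 genes nearer to T6(c-) and 22 nearer to A1(c+). The 61 genes that are high in T6(c-) stood at 88.2% of their T6(c-) level in it, and the 21 that are high in A1(c+) at 1.99% of their A1(c+) level. Replicate 1 of T6(c-) pH 8.3 48 h was nearer to A1(c+) at 21 genes. It held the genes high in T6(c-) at 68.2% of their T6(c-) level, but those high in A1(c+) at only 1.57% of their A1(c+) level. Replicate 1 of A1(c+) pH 8.3 48 h was nearer to T6(c-) at 3 genes, with the genes high in T6(c-) at 1.56% of their T6(c-) level. The genotype of these 3 replicates was held in doubt before the 82 genes were chosen, and these genes do not by themselves single them out. Results that rest on them are given with and without them. Of the other 21 replicates, 20 were nearer to their own deme at all 82 genes. The choice of the genes in these 21 replicates largely fixed this count, so it is no check of their genotype. The exception, replicate 1 of T6(c-) bic 48 h, was nearer to A1(c+) at 4 genes, with the 21 genes high in A1(c+) at 4.61% of their A1(c+) level. Replicates of T6(c-) pH 5.9 differed little beyond counting noise: a chi-square of their reads averaged 2.41 per gene at 3 h and 3.44 at 48 h, where noise alone gives about 1 and the other groups had 45.8 to 504.2. The effect of counting each of these control pairs as 1 sample is given beside the calls it ended.

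All 49 members averaged at least 10 CPM, and 36 averaged at least 1000 CPM. Per kb of transcript, LHCB1.3 (10039 CPM per kb), LHCB1.5 (9948 CPM per kb) and LHCB1.2 (7130 CPM per kb) had the highest levels, followed by PSBR (6121 CPM per kb), LHCA4 (4880 CPM per kb) and LHCA1 (4712 CPM per kb). The lowest were the rarely expressed antenna genes LHCB4.3 (55.3 CPM per kb), LHCB7 (57.4 CPM per kb), LHCA5 (120 CPM per kb) and LHCA6 (133 CPM per kb). Gene positions are given in TAIR10.1 as annotated by RefSeq. The members together took 15.5% and 15.8% of the reads at pH 5.9 after 3 h in A1(c+) and 12.6% and 12.5% in T6(c-).

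The share of reads in the 49 members differed most between treatments at 48 h. In T6(c-) bic 48 h it was 4.99% and 4.14% in replicates 1 and 2, against 16.1% and 11.8% at pH 8.3 and 16.0% and 16.0% at pH 5.9. In A1(c+) bic 48 h it was 8.42% and 9.76%, against 13.7% and 15.0% at pH 8.3 and 12.9% and 11.3% at pH 5.9. The bic share was thus below the pH 5.9 share in every replicate of both demes, and its mean was 0.285 of the control mean in T6(c-) and 0.753 of it in A1(c+). After 3 h the shares were 18.9% and 20.6% (bic), 17.9% and 19.5% (pH 8.3) and 15.5% and 15.8% (pH 5.9) in A1(c+), and 12.2% and 12.1%, 10.2% and 10.4% and 12.6% and 12.5% in T6(c-). In bulk leaf RNA, fewer mesophyll cells and less photosynthetic mRNA per cell cannot be told apart.

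**Figure D1:**
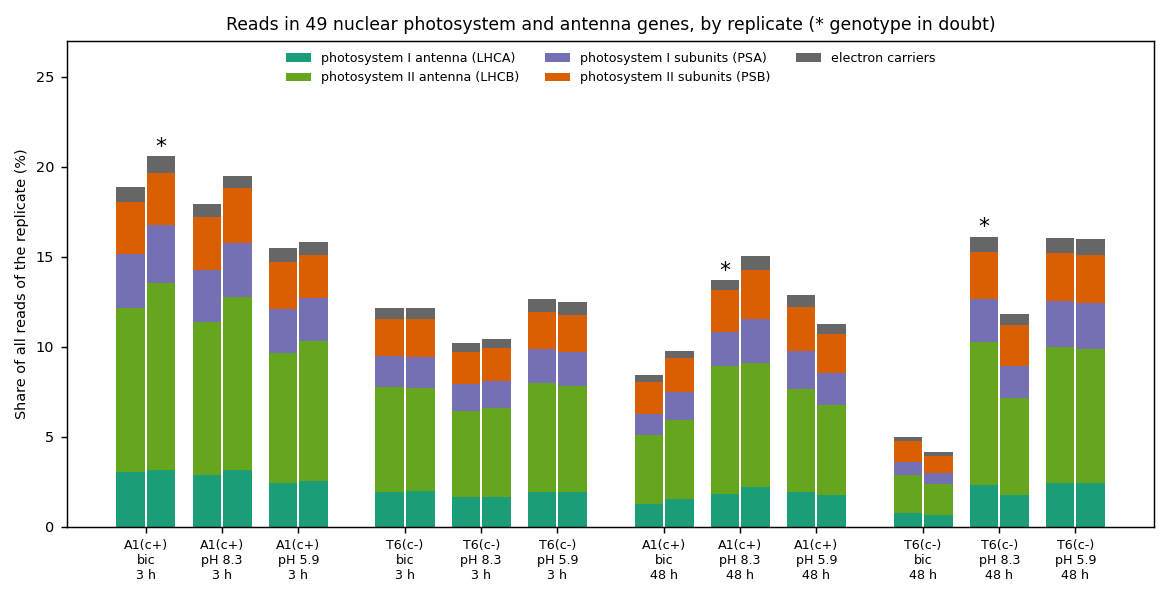
Share of library reads (%) in the 49 members as 1 bar per replicate of the 12 groups, stacked by complex, with 3 h on the left and 48 h on the right and asterisks over the 3 replicates in doubt. The 2 replicates of T6(c-) bic 48 h, at 4.99% and 4.14%, are the lowest of all 24.

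After 48 h of bic nearly the whole set was lower in T6(c-). Of 49 members, 42 fell and none rose (limma moderated test over all genes, called where the adjusted p was under 0.05 and the change exceeded 1 on the log2 scale), where 5.14% of all 18603 genes fell. All 49 fold changes were below 0, with a median of -1.81 on the log2 scale, while the median of all genes was 0.30, so that relative to it the members stood at -2.11. The called members were 5 of 6 for LHCI (median -1.82), 12 of 15 for LHCII and minor antenna (median -1.98), 12 of 12 for photosystem I (median -1.90), 9 of 10 for photosystem II (median -1.52) and 4 of 6 carriers (median -1.41). Over all genes 2559 rose and 957 fell on the values as deposited, against 1377 and 1665 with TMM scaling and 1514 and 1922 after quantile normalization, and the members called lower numbered 47 and 41 under these scalings. Without replicate 1 of T6(c-) bic 48 h, the one nearer to A1(c+) at 4 genes, 46 members fell (median -1.95). Counting each T6(c-) pH 5.9 pair as 1 sample left 41 of the 42, without PSBS.

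**Figure D2:**
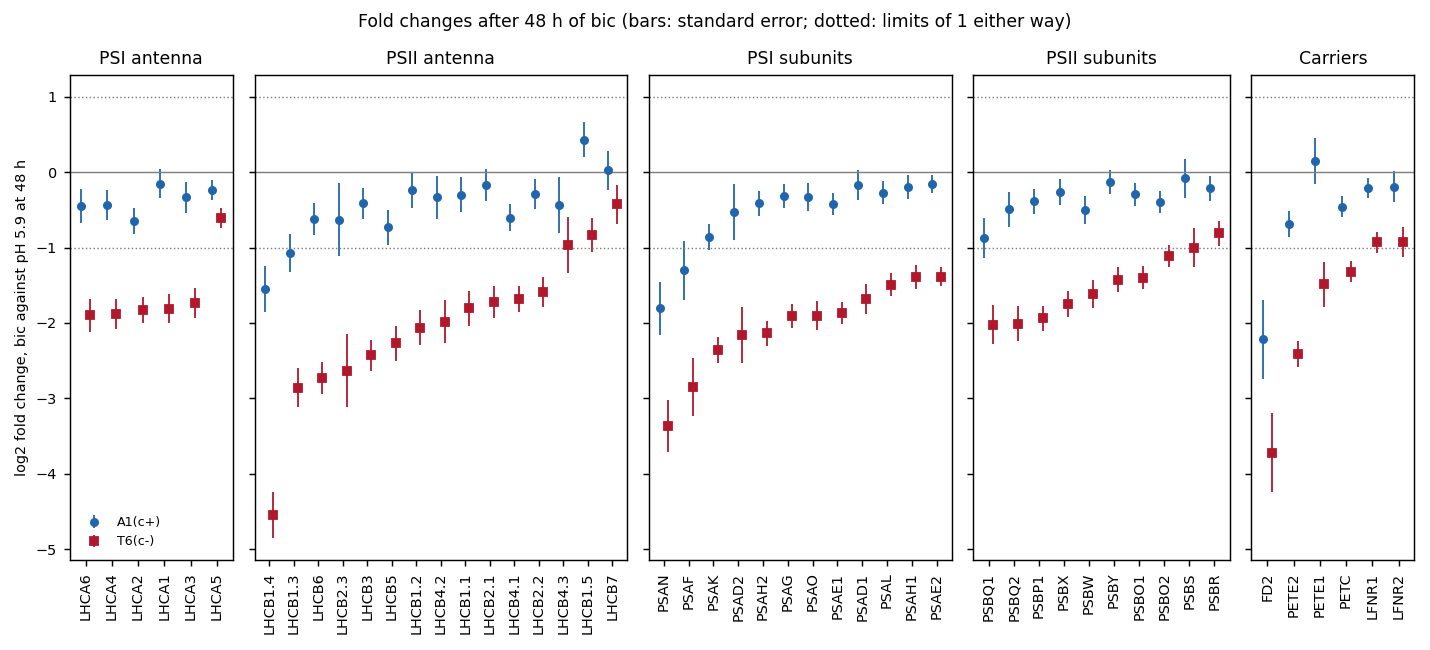
Log2 fold change of bic against pH 5.9 at 48 h for each of the 49 members in A1(c+) and T6(c-), with standard errors, grouped by complex. T6(c-) runs from -4.54 (LHCB1.4) to -0.43 (LHCB7), and A1(c+) from -2.22 (FD2) to 0.43 (LHCB1.5).

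LHCB1 encodes the most abundant LHCII protein from 5 closely related genes in 2 clusters, LHCB1.1, LHCB1.2 and LHCB1.3 on chromosome 1 and LHCB1.4 and LHCB1.5 on chromosome 2. The coding sequences of the chromosome 1 genes agree at 95.65% to 96.39% of bases, and the chromosome 2 genes at 91.42% with each other. Since reads of such copies may be assigned to the wrong gene, coding bases 25 to 84 of the chromosome 1 genes are shown in the RefSeq annotation of TAIR10.1, at chr1:10475809-10475868 (minus strand) for LHCB1.1, chr1:10473163-10473222 (minus strand) for LHCB1.2 and chr1:10478095-10478154 (plus strand) for LHCB1.3. Capitals mark the 8 of 60 bases that vary among them, out of 47 in 804.
LHCB1.1: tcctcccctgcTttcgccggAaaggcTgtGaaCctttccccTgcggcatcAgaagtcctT
LHCB1.2: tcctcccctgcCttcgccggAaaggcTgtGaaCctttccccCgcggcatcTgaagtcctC
LHCB1.3: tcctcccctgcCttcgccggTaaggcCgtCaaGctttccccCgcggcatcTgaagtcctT
No stretch of 150 coding bases, the length of a read, was identical between any 2 LHCB1 genes. The reads were aligned to the TAIR10 reference and not to the genomes of these demes, so the split of reads among the copies is uncertain.

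The LHCB1 sum was 14030.5 and 11342 CPM in T6(c-) bic 48 h, against 46493 and 45544 CPM at pH 5.9, but the copies fell unequally. LHCB1.4 (AT2G34430, chr2:14524607-14525918, plus strand) had 55.5 and 59.8 CPM, against 1332 and 1357 CPM, a 23.3-fold lower level and the largest change of any member (log2 fold change -4.54, SE 0.30, adjusted p = 1.61e-06). LHCB1.3 (AT1G29930, chr1:10477885-10479114, plus strand) had 2678 and 2471 CPM, against 19035 and 18275 CPM (log2 fold change -2.86, SE 0.26, adjusted p = 4.88e-06). Both were lower in every bic replicate than in every control replicate. LHCB1.2 (2791 and 2199 against 10449.9 and 10236 CPM) and LHCB1.1 (1477 and 1232 against 4747 and 4689 CPM) fell by 2.06 and 1.81 on the log2 scale. LHCB1.5 had 7029 and 5379.5 CPM, against 10929 and 10988 CPM, and did not pass the fold limit (log2 fold change -0.83, SE 0.23, adjusted p = 0.00904). LHCB1.5 thereby made up 50.1% and 47.4% of LHCB1 reads in T6(c-) bic 48 h, against 23.5% and 24.1% at pH 5.9, and LHCB1.3 made up 19.1% and 21.8%, against 40.9% and 40.1%. In A1(c+) at 48 h the composition lay apart in the same direction, with LHCB1.5 at 42.7% and 43.2% in bic, against 23.8% and 27.5% at pH 5.9, and LHCB1.3 at 24.6% and 27.2%, against 44.9% and 42.4%.

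LHCB1.4 and LHCB1.5, the member with the largest fall and the highest-level member that was not called, lie next to each other on opposite strands with 1038 bases between their annotated starts. For this contrast the 250 bases upstream of both starts (TAIR10.1, RefSeq) are shown, chr2:14524357-14524606 (plus strand) for LHCB1.4 and chr2:14523569-14523818 (minus strand) for LHCB1.5. Capitals mark a match to AAAAATCT, the CCA1 binding site named after the clock factor that was found on an LHCB1 promoter.
LHCB1.4: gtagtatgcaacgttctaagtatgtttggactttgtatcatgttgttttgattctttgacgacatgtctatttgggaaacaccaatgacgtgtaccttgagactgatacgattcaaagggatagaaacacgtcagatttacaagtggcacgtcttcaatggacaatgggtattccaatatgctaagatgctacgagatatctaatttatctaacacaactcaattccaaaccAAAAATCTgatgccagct
LHCB1.5: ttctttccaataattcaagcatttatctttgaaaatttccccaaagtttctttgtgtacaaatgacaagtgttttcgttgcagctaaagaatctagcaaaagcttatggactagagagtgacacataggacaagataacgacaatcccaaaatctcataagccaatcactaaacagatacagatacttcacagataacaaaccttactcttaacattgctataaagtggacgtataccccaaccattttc
The window of LHCB1.4 holds 1 match and that of LHCB1.5 none, which describes these letters and not binding.

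Of the other LHCII genes, LHCB2 encodes the second trimer protein, whose phosphorylation accompanies state transitions. The LHCB2 sum was 1549.5 and 1285 CPM in T6(c-) bic 48 h, against 4893 and 4971 CPM. LHCB2.3 had 341 and 133 CPM, against 1293 and 1348 CPM (log2 fold change -2.63, SE 0.48, adjusted p = 0.000707), with a wide gap between its bic replicates. LHCB2.1 (194 and 229 against 696 and 700.3 CPM) and LHCB2.2 (1014 and 922 against 2904 and 2923 CPM) fell by 1.72 and 1.59 on the log2 scale. LHCB3, the third trimer protein, had 968 and 719 CPM, against 4460.2 and 4517 CPM (log2 fold change -2.43, SE 0.21, adjusted p = 3.64e-06).

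Minor antenna proteins link the trimers to the photosystem II core. LHCB6 (AT1G15820, chr1:5446462-5447880, minus strand), which encodes CP24, had 1034 and 914 CPM in T6(c-) bic 48 h, against 6502 and 6383 CPM at pH 5.9 (log2 fold change -2.73, SE 0.22, adjusted p = 2.93e-06), and was the most strongly lowered of them. LHCB5 (CP26) fell by 2.27, LHCB4.2 by 1.98 and LHCB4.1 by 1.68 on the log2 scale, the last pair encoding CP29. The rare isoform LHCB4.3 had 45.5 and 24.5 CPM, against 66.1 and 64.1 CPM, and missed the threshold narrowly (log2 fold change -0.96, SE 0.37, adjusted p = 0.0501). LHCB7, a little studied antenna gene, had 86.6 and 69.0 CPM, against 103 and 105 CPM, the smallest difference of all members (log2 fold change -0.43, SE 0.26, adjusted p = 0.202). Both rare genes were lower in bic than in control replicates without overlap, and neither passed the test.

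For LHCI, the 4 main antenna genes of photosystem I moved almost in parallel. LHCA4 (AT3G47470, chr3:17493343-17495033, minus strand), the antenna gene of this complex with the highest level, had 2009 and 1788 CPM in T6(c-) bic 48 h, against 6984 and 6959.9 CPM (log2 fold change -1.88, SE 0.20, adjusted p = 1.49e-05). LHCA1, LHCA2 and LHCA3 fell by 1.81, 1.82 and 1.74 on the log2 scale. LHCA5 and LHCA6, which attach the NDH complex to photosystem I, had unequal fold changes. LHCA6 had 65.8 and 39.9 CPM, against 188 and 194 CPM (log2 fold change -1.90, SE 0.22, adjusted p = 2.81e-05), and fell with the main antenna. LHCA5 had 78.3 and 88.4 CPM, against 125 and 128 CPM, under the fold limit (log2 fold change -0.61, SE 0.13, adjusted p = 0.00259).

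Photosystem I was the complex in which every member was called lower. This rests on the call limits, since all 49 fold changes were below 0 and 47 members were called with TMM scaling. PSAN (AT5G64040, chr5:25628521-25629708, minus strand), a lumenal subunit at the plastocyanin side, had 164 and 169.5 CPM in T6(c-) bic 48 h, against 1744 and 1697 CPM (log2 fold change -3.37, SE 0.35, adjusted p = 1.21e-05). PSAF (AT1G31330, chr1:11214676-11216141, minus strand), which docks plastocyanin, had 466 and 482 CPM, against 3339.7 and 3482 CPM (log2 fold change -2.85, SE 0.39, adjusted p = 8.09e-05). These subunits of the electron-donor side fell most in the complex, PSAN 10.3-fold and PSAF 7.19-fold. PSAK, at the LHCI side, had 479.8 and 443 CPM, against 2366 and 2361 CPM (log2 fold change -2.36, SE 0.17, adjusted p = 1.68e-06). PSAL, a subunit at the LHCII docking side and the photosystem I member with the highest mean CPM, had 1538 and 1305 CPM, against 4054 and 3928 CPM (log2 fold change -1.49, SE 0.15, adjusted p = 1.15e-05). PSAO and PSAG fell by 1.90 and 1.91 on the log2 scale.

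Stromal subunits of photosystem I that dock ferredoxin come in gene pairs. PSAD summed to 891 and 725 CPM in T6(c-) bic 48 h, against 2777 and 2788 CPM, with fold changes of -1.68 for PSAD1 and -2.16 for PSAD2. PSAE summed to 1167 and 979.8 CPM, against 3597 and 3597 CPM, and PSAE2 had the smallest fall of the complex, with 315 and 259.6 CPM against 736 and 760.1 CPM (log2 fold change -1.39, SE 0.12, adjusted p = 4.71e-06). PSAH, where mobile LHCII binds, summed to 712 and 579 CPM, against 2077 and 2208 CPM, with -1.39 for PSAH1 and -2.13 for PSAH2. Copies of a pair thus fell together, and in each pair the sum in bic was below the control sum in both replicates.

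Of the photosystem II members, PSBR was the 1 that was not called. PSBQ1 and PSBQ2, of the oxygen-evolving complex, fell by 2.02 and 2.01 on the log2 scale, PSBQ1 with 295 and 237 CPM in T6(c-) bic 48 h, against 1064 and 1086 CPM (log2 fold change -2.02, SE 0.26, adjusted p = 5.39e-05). Their sum was 969 and 678 CPM, against 3268 and 3267 CPM. PSBP1, of the same complex, fell by 1.94, while the manganese-stabilising PSBO1 and PSBO2 fell by 1.398 and 1.12, and the PSBO sum was 2771 and 2365 CPM, against 6539.6 and 6433 CPM. The small subunits PSBX, PSBW and PSBY fell by 1.75, 1.62 and 1.42. PSBR (AT1G79040, chr1:29735952-29737009, plus strand), the photosystem II member with the highest mean CPM, had 3644 and 2923 CPM, against 5665 and 5806 CPM, under the fold limit (log2 fold change -0.81, SE 0.16, adjusted p = 0.00134). PSBS, which senses lumen acidity in non-photochemical quenching, was just inside the limit at 1426 and 1044 CPM, against 2459.8 and 2437 CPM (log2 fold change -1.005, SE 0.26, adjusted p = 0.00654), and has an adjusted p of 0.0546 in limma with each T6(c-) pH 5.9 pair as 1 sample.

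Among carriers, FD2 (AT1G60950, chr1:22444307-22445291, plus strand), the main leaf ferredoxin, had 127 and 156 CPM in T6(c-) bic 48 h, against 1792 and 1912 CPM (log2 fold change -3.72, SE 0.52, adjusted p = 9.71e-05), 13.2-fold lower and second only to LHCB1.4. PETE2 (AT1G20340, chr1:7042046-7043392, minus strand), the main plastocyanin and the carrier with the highest mean CPM, had 714 and 742 CPM, against 3851 and 3895 CPM (log2 fold change -2.41, SE 0.17, adjusted p = 1.66e-06). PETE1, its minor copy, fell by 1.49 and the Rieske gene PETC by 1.32. The reductases LFNR1 and LFNR2 stayed under the fold limit at -0.93 and -0.92 and were the least lowered of the carriers. LFNR2 had 225 and 158 CPM, against 359 and 356 CPM, and the sum of both was 779 and 582 CPM, against 1290.4 and 1272 CPM. Ferredoxin and its reductase, which act in sequence, thus had unequal fold changes (-3.72 for FD2 and -0.92 for LFNR2).

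**Figure D3:**
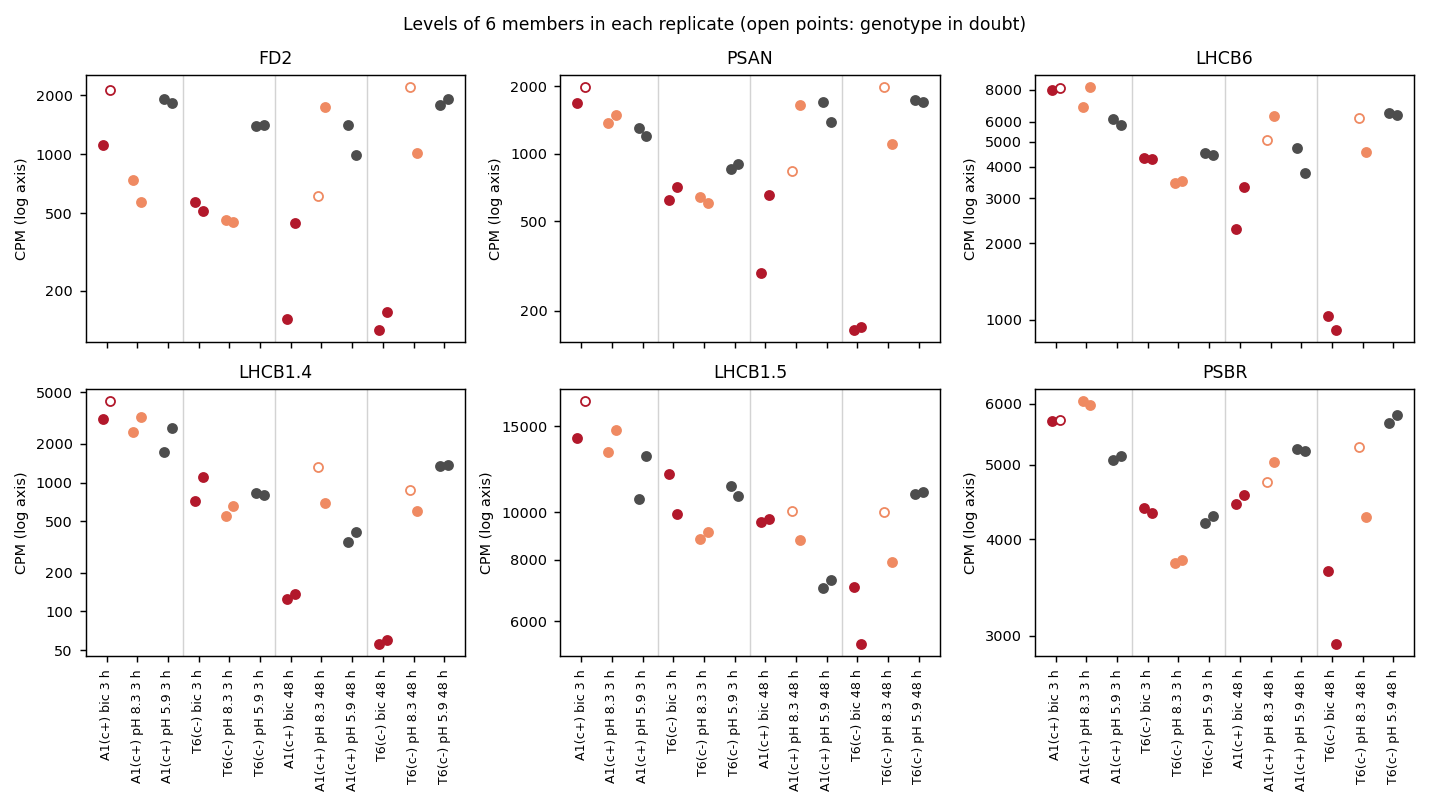
Level (CPM, log axis) of FD2, PSAN, LHCB6, LHCB1.4, LHCB1.5 and PSBR in every replicate of the 12 groups, with open points for the replicates in doubt. In T6(c-) bic 48 h LHCB1.4 stands at 55.5 and 59.8 CPM, while LHCB1.5 stands at 7029 and 5379.5 CPM.

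In A1(c+), 2 of 49 members fell after 48 h of bic and none rose, where 0.22% of all genes fell. The median was -0.39, against 0.18 over all genes, and 46 members had fold changes below 0. PSAN had 294 and 657 CPM in A1(c+) bic 48 h, against 1701 and 1390.1 CPM at pH 5.9 (log2 fold change -1.81, SE 0.35, adjusted p = 0.0317). LHCB1.4 had 124 and 136 CPM, against 347 and 413 CPM (log2 fold change -1.55, SE 0.30, adjusted p = 0.0343). Both did not overlap with their controls, and both are among the 3 members that fell most in T6(c-). FD2 had 144 and 444 CPM, against 1405 and 988 CPM, the largest difference in this deme without passing the test (log2 fold change -2.22, SE 0.52, adjusted p = 0.0571), its adjusted p ranging from 0.00597 to 0.635 over the alternatives. LHCB1.5 was higher in bic, at 9561 and 9707 CPM, against 7019.9 and 7277 CPM, without passing (log2 fold change 0.43, SE 0.23, adjusted p = 0.307). Counting each T6(c-) pH 5.9 pair as 1 sample left no call, and without the 3 replicates in doubt there were 5, since all groups share 1 estimate of the spread.

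The difference between the demes in the bic response was then tested as an interaction. At 48 h, 34 of 49 members were called with a higher fold change in A1(c+) than in T6(c-) and none with a lower one, where 1.42% of all genes were called in that direction. All 49 differences were above 0, with a median of 1.48, against -0.10 over all genes. By complex the 34 were 5 of LHCI, 12 of LHCII and minor antenna, 9 of photosystem I, 6 of photosystem II and 2 carriers. LHCB1.4 had the largest difference (log2 fold change 3.00, SE 0.43, adjusted p = 0.00273), followed by the minor antenna gene LHCB6 (log2 fold change 2.104, SE 0.31, adjusted p = 0.00273) and the trimer gene LHCB3 (log2 fold change 2.01, SE 0.29, adjusted p = 0.00273). LHCB1.2 (1.82), LHCB1.3 (1.79), PSAH2 (1.72), PETE2 (1.72), LHCA1 (1.66), LHCB4.2 (1.65) and PETE1 (1.64) completed the 10 largest differences on the log2 scale. FD2, which was low under bic in both demes, was not called (log2 fold change 1.4995, SE 0.73, adjusted p = 0.235), nor were PSAN (1.56, adjusted p = 0.0683) and PSAF (1.54, adjusted p = 0.103) in limma. This count depended on the T6(c-) pH 5.9 pairs: with each as 1 sample 8 remained (LHCB1.4, LHCB3, LHCB6, PSAE1, PSAE2, PSAG, PSAH2 and PETE2), and without replicate 2 of T6(c-) pH 5.9 48 h there were 16. Without replicate 1 of T6(c-) bic 48 h there were 35, and without its replicate 2 there were 21.

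Against the pH-matched solution the T6(c-) result was much the same. At 48 h, 43 of 49 members were lower in bic than at pH 8.3 in T6(c-), where 6.28% of all genes were, with a median of -1.51 against 0.25 over all genes. The 6 not called were LHCA5, LHCB1.5, LHCB7, PSBR, PSBS and LFNR1, and all of these but PSBS also missed the call against pH 5.9. The falls were largest for LHCB1.4 (-3.66), FD2 (-3.41), PSAN (-3.16), LHCB1.3 (-2.60), LHCB2.3 (-2.56), PSAF (-2.48), LHCB6 (-2.45), PSBQ1 (-2.36), LHCB5 (-2.27) and LHCB3 (-2.19). FD2 had 2217 and 1011 CPM at pH 8.3, the first of them in the replicate in doubt, and both lay far above the bic values. Without the replicates in doubt 41 members were called (median -1.37), PSAE2, PETE1 and LFNR2 no longer passing the fold limit. This comparison and the one against pH 5.9 share the bic samples. Fitting only the 2 groups compared, which leaves 2 residual degrees of freedom, gave 10 calls.

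In A1(c+) 7 of 49 members were lower in bic than at pH 8.3 after 48 h, where 3.27% of all genes were. With an adjusted p under 0.05 alone 22 were lower, where 5.39% of all genes were, and 48 of 49 fold changes were below 0 (median -0.60). LHCB1.4 had 124 and 136 CPM in A1(c+) bic, against 1318 and 693 CPM at pH 8.3 (log2 fold change -2.88, SE 0.30, adjusted p = 0.000831), and LHCB1.3 had 5519 and 6099.7 CPM, against 19186 and 16147 CPM (log2 fold change -1.60, SE 0.26, adjusted p = 0.00418). FD2 (-2.03), PSAN (-1.42), PSBQ1 (-1.05), LHCB6 (-1.04) and PSAK (-1.04) were the others. Replicate 1 of A1(c+) pH 8.3 48 h is in doubt, and 8 members were called without the 3 such replicates. With each T6(c-) pH 5.9 pair as 1 sample 4 were left (LHCB1.3, LHCB1.4, LHCB6 and PSAK), without replicate 2 of A1(c+) pH 8.3 48 h only 2, and in a fit of only these 2 groups none.

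Few members were called under high pH without bicarbonate. In T6(c-) after 48 h none of 49 was called (29 of all genes, 0.156%, were), with 5 lower at an unadjusted p under 0.05 and a median of -0.24, or -0.42 without the replicate in doubt. In A1(c+) after 48 h LHCB1.4 was the only member called, higher at pH 8.3, where 0.898% of all genes were. It had 1318 and 693 CPM, the first in the replicate in doubt, against 347 and 413 CPM at pH 5.9 (log2 fold change 1.34, SE 0.30, adjusted p = 0.0448). Without the replicates in doubt its fold change was 0.87 (adjusted p = 0.0755 in limma), and no member was called, nor was any with each T6(c-) pH 5.9 pair as 1 sample (adjusted p = 0.120 for LHCB1.4 in limma). In the difference between the demes, LHCB1.4 was again the 1 member called, where 0.0269% of all genes were called higher (log2 fold change 2.21, SE 0.43, adjusted p = 0.0489), with a fold change of 2.02 without the replicates in doubt and an adjusted p of 0.460 with each T6(c-) pH 5.9 pair as 1 sample.

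After 3 h the members were shifted little and, under pH 8.3, in opposite directions in the demes. In A1(c+) at pH 8.3 LHCB2.1 rose, to 469 and 510.0 CPM, against 271 and 188 CPM at pH 5.9 (log2 fold change 1.11, SE 0.21, adjusted p = 0.0107), where 0.226% of all genes rose. The median of the 49 was 0.26 in A1(c+), against -0.27 over all genes, and -0.25 in T6(c-), against -0.01, where no member and 0% of all genes were called and 5 members were lower with an unadjusted p below 0.05. Fold changes were above 0 in A1(c+) and below 0 in T6(c-) for 38 of 49 members. When the 2 demes were subtracted, 47 of 49 values were above 0 (median 0.52), 16 had an unadjusted p under 0.05 and none was called, as in 0% of all genes. The A1(c+) median was 0.54 with TMM scaling and 0.04 after quantile normalization, with 26 members higher and 22 lower in the second. The shares of all genes called for pH 8.3 at 3 h hold for the fit with the replicates in doubt, and more genes were called without them.

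After 3 h of bic no member was called in either deme. In A1(c+) 45 of 49 fold changes were above 0 (median 0.30, against -0.19 over all genes), 11 had an unadjusted p under 0.05, and 0.0161% of all genes were called in either direction. The replicates in doubt add to the spread that all groups share. Without them more genes were called for bic against pH 5.9 at 3 h in both demes, so a low share here does not show that leaves hardly responded. Replicate 2 of this group went against its label, and without the replicates in doubt the median was 0.26. In T6(c-) 22 of 49 were above 0 (median -0.03) and 0% of all genes were called, with 1 member higher and 1 lower with an unadjusted p below 0.05. A1(c+) minus T6(c-) had a median of 0.35 with 43 of 49 above 0 (46 without the replicates in doubt), 5 of them with an unadjusted p below 0.05, and none was called, as in 0% of all genes. Between bic and pH 8.3 none was called in A1(c+) (median 0.02, 2 at an unadjusted p under 0.05, 0.0215% of all genes called) or in T6(c-) (median 0.22, 49 of 49 above 0, 1 at an unadjusted p under 0.05, 0% of all genes called).

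FD2 was also read at 3 h. In T6(c-) it had 568 and 512 CPM in bic and 462 and 450.5 CPM at pH 8.3, against 1403 and 1409 CPM at pH 5.9. In A1(c+) it had 1122 and 2142 CPM in bic, the second in the replicate in doubt, and 736 and 567 CPM at pH 8.3, against 1912 and 1822 CPM at pH 5.9. Apart from the replicate in doubt, every alkaline replicate was below every control replicate of its deme, yet none of these differences passed the test across all genes. The log2 fold changes were -1.38 (bic) and -1.62 (pH 8.3) in T6(c-) and -0.27 (bic) and -1.53 (pH 8.3) in A1(c+), with limma adjusted p of 0.455, 0.332, 0.853 and 0.0790. Without the replicates in doubt the fold change of bic in A1(c+) was -0.73 (adjusted p = 0.297), and the adjusted p was 0.0593 for bic in T6(c-), 0.0315 for pH 8.3 in T6(c-) and 0.0109 for pH 8.3 in A1(c+). Over all alternatives the adjusted p of the pH 8.3 comparisons in T6(c-) and A1(c+) ran from 0.000625 to 1.00 and from 0.0109 to 0.344. This gene was singled out after its values were seen.

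**Figure D4:**
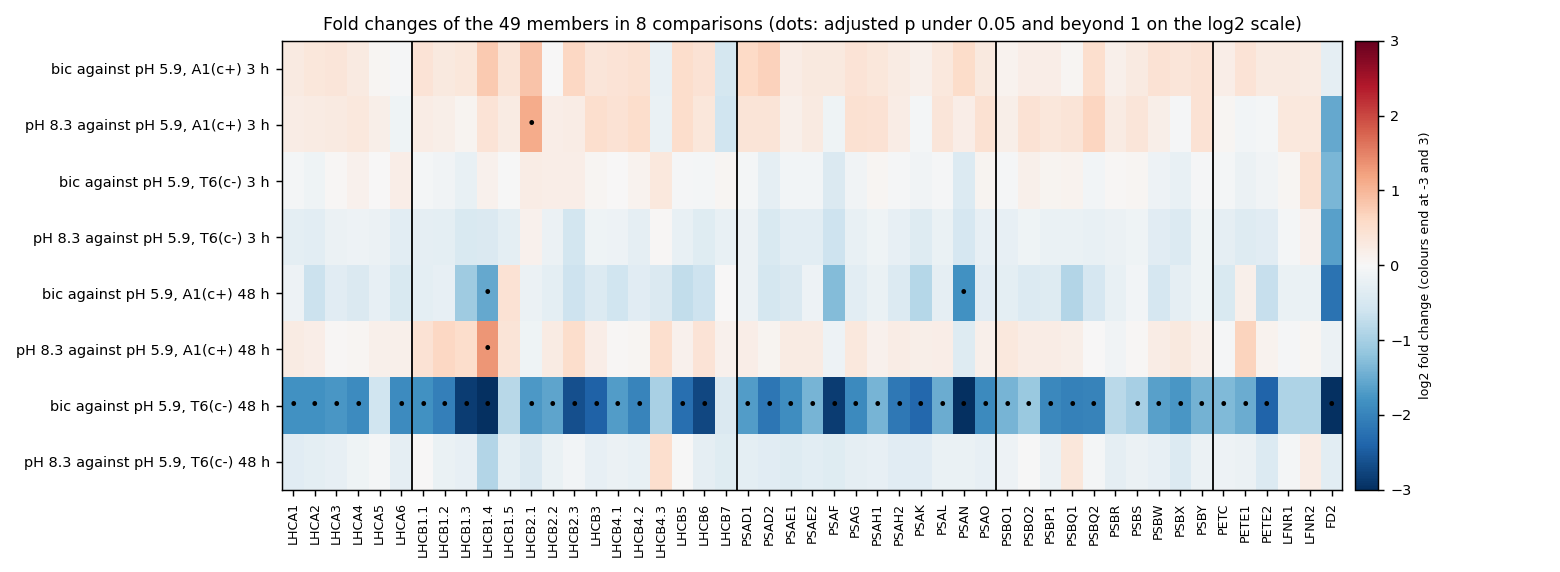
Log2 fold changes of the 49 members (columns, by complex) for bic and pH 8.3 against pH 5.9 in both demes at 3 h and 48 h (8 rows), with colours that end at -3 and 3 and dots on called values. The row of T6(c-) bic at 48 h holds 42 dots and the other rows at most 2 each.

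At pH 5.9 a few members were called between the demes themselves. After 3 h 5 of 49 members were higher in A1(c+) than in T6(c-), where 2.42% of all genes were: LHCB2.3 (2.08), LHCB2.2 (1.66), LHCB4.3 (1.56), LHCB1.4 (1.397) and PSBQ1 (1.07). LHCB2.2 had 5833 and 5699 CPM in A1(c+), against 1846 and 1812 CPM in T6(c-), and LHCB2.3 had 2776 and 2897 CPM, against 668 and 674 CPM. After 48 h LHCB2.3 had 1729.5 and 1347 CPM in A1(c+), against 1293 and 1348 CPM in T6(c-). A smaller share of members than of all genes (5.21%) was lower in A1(c+) at 48 h, namely 2 of 49 members. These were LHCB1.4, with 347 and 413 CPM, against 1332 and 1357 CPM (log2 fold change -1.83, SE 0.30, adjusted p = 0.00345), and LHCB1.2, with 5335 and 4568 CPM, against 10449.9 and 10236 CPM (log2 fold change -1.07, SE 0.24, adjusted p = 0.0115). LHCB1.4 thus lay on opposite sides at the 2 times, and so did most of the set, largely without calls. At 3 h 42 of 49 fold changes were above 0 (median 0.27, against -0.07 over all genes). At 48 h 42 of 49 were below 0 (median -0.37, against -0.04 over all genes). With each T6(c-) pH 5.9 pair as 1 sample none of these 7 calls remained, and reads of both demes were aligned to 1 reference, so sequence differences between copies were not tested.

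Between 48 h and 3 h at pH 5.9, 3 of 49 members were lower at 48 h in A1(c+), a smaller share than the 11.7% of all genes. LHCB1.4 had 347 and 413 CPM at 48 h, against 1722 and 2653 CPM at 3 h (log2 fold change -2.50, SE 0.30, adjusted p = 9.34e-05), and LFNR2 (-1.21) and LHCB1.2 (-1.10) were the others. In T6(c-) LFNR2 was the only member called, lower at 48 h, a smaller share of the 49 than the 7.09% of all genes. It had 359 and 356 CPM at 48 h, against 769 and 780.3 CPM at 3 h (log2 fold change -1.12, SE 0.20, adjusted p = 0.00146). With each T6(c-) pH 5.9 pair as 1 sample this call was lost (adjusted p = 0.0845 in limma), and with TMM scaling 3 members were called higher and none lower. Otherwise members tended to be higher at 48 h in T6(c-) (41 of 49 above 0, median 0.41), 13 of them with an adjusted p under 0.05 alone in limma, where 4.63% of all genes were. In T6(c-) at pH 5.9 the clock genes CCA1 and LHY were far higher at 48 h than at 3 h. CCA1 had 588 and 574 CPM, against 120.0 and 119.7 CPM, and LHY had 455 and 463 CPM, against 21.3 and 20.7 CPM. Of 7 listed clock genes, 3 had fold changes above 0 and 4 below 0 in this T6(c-) comparison. Called were 2 higher and 1 lower, where 2.13% and 7.09% of all genes were. In A1(c+) 2 were called higher and 3 lower, where 3.38% and 11.7% of all genes were. Time of day and time in treatment cannot be told apart here. The labels do not give the hour of harvest, so an equal hour for groups of the same time is assumed and was not checked.

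Other genes of the photosynthetic apparatus were read from lists of assembly factors, antenna-like genes, carbon fixation, regulators and plastid-encoded genes. In T6(c-) bic against pH 5.9 at 48 h 5.14% of all genes fell. Of 16 assembly and regulation genes 7 fell and none rose (median -0.63). PETM, a small subunit of the cytochrome b6f complex, had 55.4 and 84.3 CPM, against 513 and 524 CPM (log2 fold change -2.92, SE 0.50, adjusted p = 0.000444), and PSBTN, of photosystem II, had 151 and 162 CPM, against 1066 and 1079 CPM (log2 fold change -2.78, SE 0.22, adjusted p = 2.65e-06). PSB27 (-1.56), cpSRP43 (-1.30), PSB28, LTD and FD1 were the other 5, of which cpSRP43 and LTD deliver antenna proteins to thylakoids. Of 11 genes for carbon fixation and ATP synthase 10 fell (median -1.50), RBCS1B with 194 and 242 CPM, against 2537 and 2567 CPM (log2 fold change -3.56, SE 0.54, adjusted p = 0.000168), and RBCS2B (-3.15), RBCS3B (-2.48) and GAPA1 (-1.75) after it. None of these genes was called in A1(c+) bic against pH 5.9 at 48 h, where 0.22% of all genes fell. Fold changes there were below 0 for all 11 carbon fixation and ATP synthase genes (median -0.46). They were below 0 for 11 of the 16 assembly and regulation genes (median -0.17), against a median of 0.18 over all genes.

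Of 6 antenna-like genes 1 rose and 1 fell in T6(c-) bic 48 h against pH 5.9, where 13.8% of all genes rose and 5.14% fell. ELIP1, an early light-induced protein that is raised in light stress, rose, to 824 and 999 CPM, against 59.4 and 61.8 CPM at pH 5.9 (log2 fold change 3.91, SE 0.62, adjusted p = 0.000248), 15.0-fold and opposite to the antenna proper, while OHP1 fell by 1.35 on the log2 scale. Of 8 regulators only SIG1, a sigma factor of the plastid RNA polymerase, fell (log2 fold change -1.57, SE 0.35, adjusted p = 0.00268). GLK1 (550.1 and 466 against 720.0 and 690.2 CPM) and GLK2 (181 and 184 against 261 and 256 CPM), activators of antenna genes, did not pass (-0.48 and -0.51 log2). None of 7 plastid-encoded genes was called (median 0.08, where 5.14% of all genes fell), but their summed level varied from 44.8 to 477.0 CPM between replicates, so that no direction was read from them. Of 7 clock genes none fell and 1 rose, a share near the 13.8% of all genes that rose. This was TOC1 (log2 fold change 1.23, SE 0.28, adjusted p = 0.00319).

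Markers of leaf state were also read in T6(c-) bic 48 h. All 3 mesophyll markers fell (RBCS1A, RCA and LHCB1.3), where 5.14% of all genes did. They give no separate reading, since LHCB1.3 is itself a member and RBCS1A and RCA are in the carbon fixation list above. They summed to 18486 and 13992 CPM, against 50784 and 50271 CPM at pH 5.9. The other 22 replicates, controls included, held at least 29088 CPM. Of 4 senescence markers 3 were in the table, all but SAG12, and summed to 198 and 306 CPM, against 115 and 120.0 CPM. Of these 3 only NYE1 was called, where 13.8% of all genes rose. NYE1, a gene of chlorophyll breakdown, rose to 113 and 164 CPM, against 46.0 and 47.8 CPM (log2 fold change 1.54, SE 0.29, adjusted p = 0.000843). ORE1, a senescence transcription factor, had 32.6 and 58.8 CPM, against 8.04 and 8.44 CPM, without passing (log2 fold change 2.41, SE 1.02, adjusted p = 0.0706), and NYC1 had a log2 fold change of 0.09 that did not pass. In A1(c+) bic 48 h the same 3 genes summed to 62.6 and 173 CPM, against 156 and 116 CPM, and none was called. The part of these states in the members' fall was not tested.

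Upstream windows of the members were read for 4 motifs on both strands, since members fell together. The G-box CACGTG was in the 250 bases upstream of 9 of 49 members (18.4%), against 6.49% of 27444 protein-coding genes, and the I-box GATAAG in 12 (24.5%), against 12.3%. The CCA1 site AAAAATCT was in 5 members (10.2%), against 6.69%, and the evening element AAAATATCT, which shares letters with it but holds no match to it, in 1 (2.04%), against 2.36%. The G-box was upstream of LHCA4, LHCB2.3, LHCB4.1, LHCB6, LHCB7, PSAE2, PSAH2, PSBQ1 and PSBQ2, which include members with large falls (LHCB6) and the one with the smallest (LHCB7). The windows of LHCB6, with 1 G-box and 1 I-box, and of FD2, with neither, are shown as the most lowered minor antenna gene and carrier, at chr1:5447881-5448130 (minus strand) and chr1:22444057-22444306 (plus strand) of TAIR10.1, with matches in capitals.
LHCB6: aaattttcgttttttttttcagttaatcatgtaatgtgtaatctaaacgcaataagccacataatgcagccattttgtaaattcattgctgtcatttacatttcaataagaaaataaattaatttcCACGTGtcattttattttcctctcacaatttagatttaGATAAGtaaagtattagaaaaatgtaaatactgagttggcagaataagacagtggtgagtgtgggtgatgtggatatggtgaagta
FD2: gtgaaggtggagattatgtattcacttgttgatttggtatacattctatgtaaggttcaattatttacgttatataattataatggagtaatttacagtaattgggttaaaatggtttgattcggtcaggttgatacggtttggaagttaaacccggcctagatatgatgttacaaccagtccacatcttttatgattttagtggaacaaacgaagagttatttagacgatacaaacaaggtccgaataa
FD2 fell without any of the 4 motifs in this window, and a match or its absence here says nothing about binding.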

How the data were processed

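Leaf RNA was sequenced by the authors as paired reads of 150 bases from unstranded libraries, and the TAIR10 reference was used. The study's text and the submitters' processing notes name different aligners, so the aligner is not stated here. The authors deposited log2 CPM values, with 0.5 reads added to each count before scaling to the library total, and all values came out within 0.1 of a whole number of reads when this was undone. The table's 24 columns were each matched to 1 replicate and 0 columns were unmapped.

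Values were fitted in limma 3.58.1 (R 4.3.3) with 1 mean per group over all 24 replicates, a mean-variance trend and no filter (12 residual degrees of freedom), and p-values were adjusted by Benjamini-Hochberg over 18603 genes. A gene was called at an adjusted p under 0.05 with a log2 fold change beyond 1. Of 20 comparisons 18 were planned, and the difference between demes in the pH 8.3 response at 3 h and 48 h was added after values were seen, as was the alternative that counts each T6(c-) pH 5.9 pair as 1 sample. Scaling, quantile normalization, the pseudocount, a minimum of 10 CPM, the replicate number as a block, the trend, voom weights, the groups fitted, the fold limit and each replicate's removal were varied. The recovered reads were used for voom weights, and edgeR and DESeq2 were not run.

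The members and gene lists were chosen with earlier results of these data known. Named were, per complex, the member with the highest mean CPM and those with the highest and lowest fold change in T6(c-) bic 48 h, called members (at most 10 per comparison), families of close copies with their sums, and at most 5 called list genes per comparison, with further members given in context. Sequences were read from the RefSeq annotation of TAIR10.1 with Biopython 1.88, by gene identifier (18536 of 18603 matched, 49 of 49 members). Fits were tested on simulated data. A further list of marker genes is not reported here.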

Additional observations from a re-analysis of the deposited data

Results flagged for a closer look

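The response to bic at 48 h differed between the demes, A1(c+) minus T6(c-), in 34 members by an interaction term in limma, where 1.42% of all genes differed in that direction. The count was 8 with each T6(c-) pH 5.9 pair as 1 sample and 16 without replicate 2 of T6(c-) pH 5.9 48 h. The differences on the log2 scale were 3.00 for LHCB1.4, 2.104 for LHCB6, 2.01 for LHCB3, 1.82 for LHCB1.2, 1.79 for LHCB1.3, 1.72 for PSAH2, 1.72 for PETE2, 1.66 for LHCA1, 1.65 for LHCB4.2 and 1.64 for PETE1. The response to pH 8.3 at 48 h differed in 1 member, LHCB1.4, by 2.21 on the log2 scale, in groups that hold 2 of the replicates in doubt. The change in the members' share of reads at 3 h was 4.45 percentage points higher in A1(c+) than in T6(c-) under bic and 5.25 percentage points higher under pH 8.3. In both, every replicate of A1(c+) lay above and every replicate of T6(c-) below its controls. These share differences were not tested, and the A1(c+) bic 3 h group holds a replicate in doubt.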

How the results depend on the processing

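The 42 members called lower in T6(c-) bic against pH 5.9 at 48 h numbered 41 to 46 when each replicate was left out. Over all comparisons, the 142 called values were each refitted under many alternatives, most of which left out 1 replicate, often one outside the comparison. Over these repeated refits 4015 values kept their call and 245 lost it, and none changed direction. These totals thus overstate how firm the calls are. The most calls were lost with each T6(c-) pH 5.9 pair as 1 sample. The cause of the changes below was not tested. With TMM scaling 1 member was called at 48 h against 3 h in A1(c+) and 3 in T6(c-), all 3 higher, and with quantile normalization 3 in T6(c-), of which 2 were higher. Quantile normalization gave 1 call for A1(c+) bic 48 h and 1 for A1(c+) against T6(c-) at 48 h, and 0 for pH 8.3 at 48 h in A1(c+) and in its difference between demes. A minimum of 10 CPM gave 4 for A1(c+) bic 48 h and 0 for A1(c+) pH 8.3 48 h. Fitting only the groups compared gave 2 for A1(c+) pH 8.3 3 h, 1 each for T6(c-) bic and pH 8.3 at 3 h, 0 for A1(c+) bic and pH 8.3 at 48 h and for bic against pH 8.3, 10 for T6(c-) bic against pH 8.3 at 48 h, 21 for the difference between demes under bic and 0 under pH 8.3. Voom weights gave 0 for A1(c+) pH 8.3 48 h and 0 for the difference between demes there, as did dropping the trend for the second (0). With no fold limit 22 were called for A1(c+) bic against pH 8.3 at 48 h, 9 and 10 for A1(c+) against T6(c-) at 3 h and 48 h, 10 for 48 h against 3 h in A1(c+) and 14 in T6(c-), of which 13 were higher. Without the 3 replicates in doubt the calls were 2 (A1(c+) pH 8.3 3 h), 5 (A1(c+) bic 48 h), 0 (A1(c+) pH 8.3 48 h), 1 (T6(c-) pH 8.3 3 h) and 1 (T6(c-) pH 8.3 48 h). With each T6(c-) pH 5.9 pair as 1 sample they were 0 (A1(c+) bic 48 h), 0 (A1(c+) pH 8.3 48 h), 4 (A1(c+) bic against pH 8.3 at 48 h), 0 and 0 (A1(c+) against T6(c-) at 3 h and 48 h), 8 and 0 (difference between demes under bic and pH 8.3 at 48 h) and 0 (48 h against 3 h in T6(c-)), assuming that the lone samples vary like the others.

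Medians of the 49 were 0.50 with TMM and 0.11 with quantile normalization for A1(c+) bic 3 h, 0.54 and 0.0351 for A1(c+) pH 8.3 3 h, -2.11 and -1.47 for T6(c-) bic 48 h, 0.81 and 0.23 for the difference between demes under pH 8.3 at 3 h, and 0.69 and 0.11 for 48 h against 3 h in T6(c-). With TMM they were -1.78 for T6(c-) bic against pH 8.3 at 48 h and 0.0223 for 48 h against 3 h in A1(c+). Without the 3 replicates in doubt they were -0.42 for T6(c-) pH 8.3 48 h and 0.72 for its difference between demes. Leaving out 1 replicate gave 0 to 2 calls for A1(c+) pH 8.3 at 3 h and at 48 h, 0 to 4 for A1(c+) bic 48 h, 2 to 9 for A1(c+) bic against pH 8.3 at 48 h, 1 to 5 and 1 to 2 for A1(c+) against T6(c-) at 3 h and 48 h, and 16 to 38 and 0 to 1 for the difference between demes under bic and pH 8.3 at 48 h. Medians then ran from -0.42 to -0.0554 for T6(c-) pH 8.3 48 h, 1.24 to 1.63 for the difference under bic and 0.26 to 0.60 under pH 8.3. Same-numbered replicates did not deviate together (correlations of -0.42 to 0.44 over 66 pairs of groups, 11 above 0.1), so the numbers give no pairing. With the replicate number as a block the calls were 0 for A1(c+) pH 8.3 48 h and 0 for the difference between demes under pH 8.3 at 48 h, and 140 of 142 called values kept their call.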
